A study of Homo sapiens with 24 samples.

Results

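The DAXX knockout by etoposide interaction is the response of DAXX_KO cells to etoposide minus the response of wild-type (WT) cells, on the log2 scale. It was taken for every gene from 12 of the 24 libraries of the series: 3 of WT cells in control, 3 of WT cells with etoposide, 3 of DAXX_KO cells in control and 3 of DAXX_KO cells with etoposide. Enough counts for a test were found for 15247 of 57736 genes, and all of these were kept, whatever their direction. A positive interaction means a higher response in DAXX_KO cells, either more induction or less repression, and a negative interaction means the opposite.

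All cells were U87-T, a line made from U87 glioblastoma cells with a TERT transgene, so WT and DAXX_KO cells share that transgene. The WT cells carried a control CRISPR vector. The DAXX_KO cells are a single-cell clone made with CRISPR. The study describes it as having acquired features of alternative lengthening of telomeres. An effect of losing DAXX, those acquired features and any other feature of that clone cannot be told apart. Control cells are labelled untreated, and neither dose nor time of etoposide for these libraries is given in the sources used here. RNA was measured by 3′-end sequencing of polyadenylated RNA, with 6928950 to 10410014 counts per library. The study states in general that its experiments used biological replicates, and the labels do not say whether the 3 libraries of a group came from separate cultures, so p-values measure the spread between these libraries.

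For the DAXX_KO libraries the titles give DAXX as the lost gene but the genotype field gives ATRX, and the titles were followed. DAXX, the histone H3.3 chaperone at chr6:33286335-33290793 (GRCh37), was measured at 35.3, 33.5 and 32.9 CPM (counts scaled to a common library size) in WT control cells and at 6.25, 4.62 and 6.62 CPM in DAXX_KO control cells. With etoposide it stood at 20.8, 21.5 and 22.7 CPM in WT and at 7.31, 11.2 and 11.1 CPM in DAXX_KO cells, so the libraries of the 2 genotypes did not overlap in either condition. ATRX, the chromatin remodeller that partners DAXX, was higher in DAXX_KO than in WT cells in control (364 to 414 against 219 to 245 CPM) and with etoposide. The small noncoding RNA BCYRN1 took 4.82 to 7.12% of counts in WT control and 4.54 to 5.83% in DAXX_KO control libraries. With etoposide it took 11.6 to 12.1% in WT and 8.44 to 10.1% in DAXX_KO libraries, without overlap. Its part in the results, including the scaling by library totals, was not tested. Of the 8 markers fixed for U87-type cells all were tested. Together they summed to 9123 to 10014 CPM in WT control and 7164 to 7890 CPM in DAXX_KO control libraries. With etoposide they summed to 5468 to 5647 CPM in WT and 4066 to 5030 CPM in DAXX_KO libraries. The 8 markers of differentiated glia and neurons summed to 20.2 to 26.9 CPM in WT and 33.1 to 46 CPM in DAXX_KO libraries; 3 of them had enough counts to be tested, and GFAP, S100B, SOX10 and AQP4 had at most 3 counts in each library. Markers of epithelial, blood and endothelial cells summed to 22.4 to 27.1 CPM in WT libraries and 5.22 to 8.94 CPM in DAXX_KO libraries, and their part in the results was not tested.

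DAXX and ATRX together place the histone variant H3.3 into chromatin. DAXX has also been reported to bind p53 and its ubiquitin ligase MDM2, but the study found no stable binding of DAXX to p53 in U87-T cells. Etoposide traps topoisomerase II on cut DNA. The breaks activate p53, which turns on genes of cell cycle arrest and cell death, while genes of mitosis fall as cells stop dividing, a repression that runs largely through p21 (CDKN1A) and the DREAM complex.

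The response to etoposide differed between DAXX_KO and WT cells for 2160 of 15247 genes (14.2%) in edgeR's quasi-likelihood test at a false discovery rate (FDR) of 5%. Of these, 1277 (8.38%) had a positive and 883 (5.79%) a negative interaction. Within WT cells 29.6% of genes rose and 30.6% fell with etoposide, and within DAXX_KO cells 26.8% rose and 27.8% fell. The median size of the interaction among called genes was 0.66, and 533 reached a 2-fold difference. When libraries were scaled by their totals alone, without TMM factors, the split moved from 1277 positive and 883 negative to 793 and 1359, and the median of all genes moved from 0.02 to −0.10.

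By class, the called genes fell into 865 genes with weaker repression in DAXX_KO cells, 630 with weaker induction, 84 with reversed repression and 54 with reversed induction. A DAXX_KO response was itself called for 571 of the 865 and 328 of the 630 genes with a weaker response, and was not called for the other 294 and 302. A stronger response was found for 127 induced and 61 repressed genes. A further 198 genes rose and 135 fell with etoposide in DAXX_KO cells alone among the called responses, and 6 had neither response called. The WT libraries enter both the class and the interaction, so a weaker class is in part set by how the genes were sorted.

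**Figure D1:**
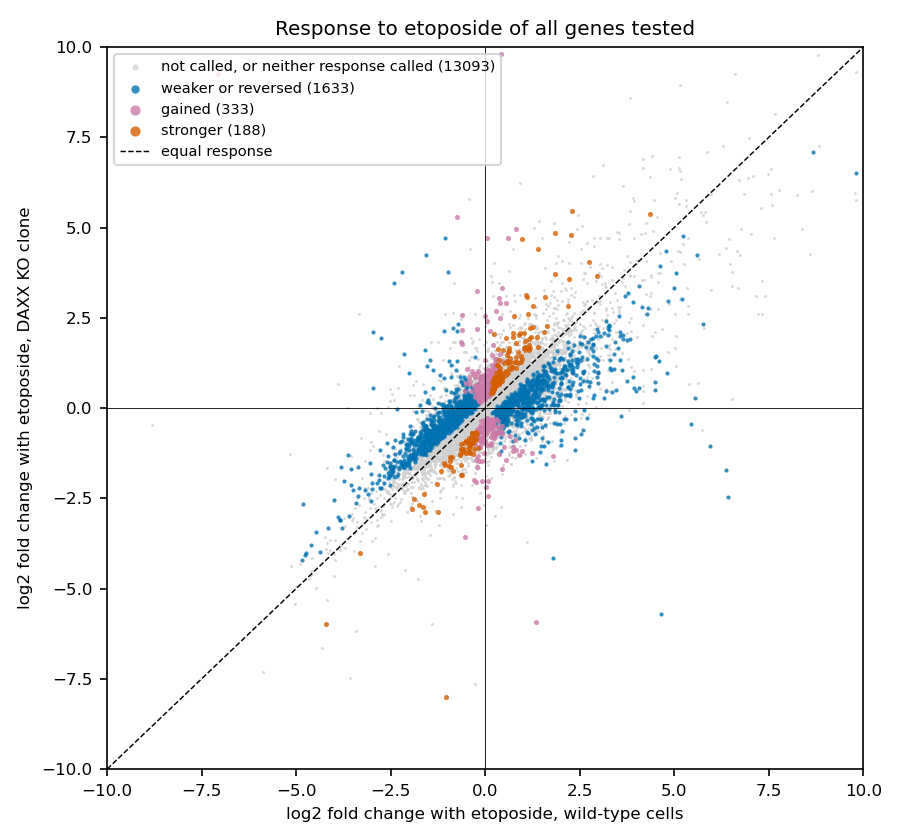
Each point is 1 of 15247 genes, with its log2 fold change with etoposide in WT cells on the x axis and in DAXX_KO cells on the y axis, drawn at the edge where it lies beyond 9.8. Blue points have a weaker or reversed response in DAXX_KO cells (1633 genes), orange points a stronger one (188) and purple points a gained one (333); the dashed line marks equal responses, and most blue points lie between it and the horizontal axis.

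In both weaker classes many genes differed in level between the genotypes, with similar shares in opposite directions. Genes with weaker induction had a median response of 1.32 in WT and 0.35 in DAXX_KO cells. Of the 630, 403 (64%) were already higher in DAXX_KO cells in control, while 312 (49.5%) were lower with etoposide. For comparison, 53.4% of all genes differed between the genotypes in control (26.7% higher and 26.6% lower in DAXX_KO cells) and 53% with etoposide (27.9% higher and 25.2% lower). Genes with weaker repression had medians of −1.11 and −0.47, with 547 of 865 (63.2%) lower in DAXX_KO cells in control and 420 (48.6%) higher with etoposide. The genotype differences in control and with etoposide make up the interaction itself. The shares in both classes are therefore in part set by which genes were called. Among the 633 genes induced at least 4-fold in WT cells, 26.7% had a negative and 1.11% a positive interaction, and among the 359 genes repressed at least 4-fold, 34% had a positive and 0.557% a negative one. Those genes were selected by the WT response that the interaction subtracts, so these shares are in part set by the selection.

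Genes were then grouped by function in 30 lists, 29 of which had tested members. The counts of each list are to be read beside shares over all genes of 8.38% positive and 5.79% negative. Among genes repressed at least 4-fold in WT cells 34% were positive, and among those induced at least 4-fold 26.7% were negative. The response of a list in WT cells therefore bears on its counts. Across the 29 lists the p53 targets of metabolism, the p53 targets of arrest and the genes named by the study had the lowest medians. The mitotic genes, metallothioneins and matrix proteases had the highest. The 34 ribosomal protein genes (2 positive, 0 negative, median −0.04, and 0 and 2 with scaling by totals alone) and 34 nuclear oxidative phosphorylation genes (1 positive, 1 negative, median 0.02) had medians near that of all genes. With single libraries left out these counts ranged from 0 to 2 positive and 0 to 1 negative for the ribosomal list and from 0 to 2 in each direction for the oxidative phosphorylation list. Of 22 interferon-stimulated genes 0 were called in either direction by edgeR or DESeq2, and 0 had an unadjusted p under 0.05 by edgeR (median −0.14). IFIT2, an interferon-induced RNA-binding protein, had an interaction of −0.74 with an adjusted p of 0.20.

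**Figure D2:**
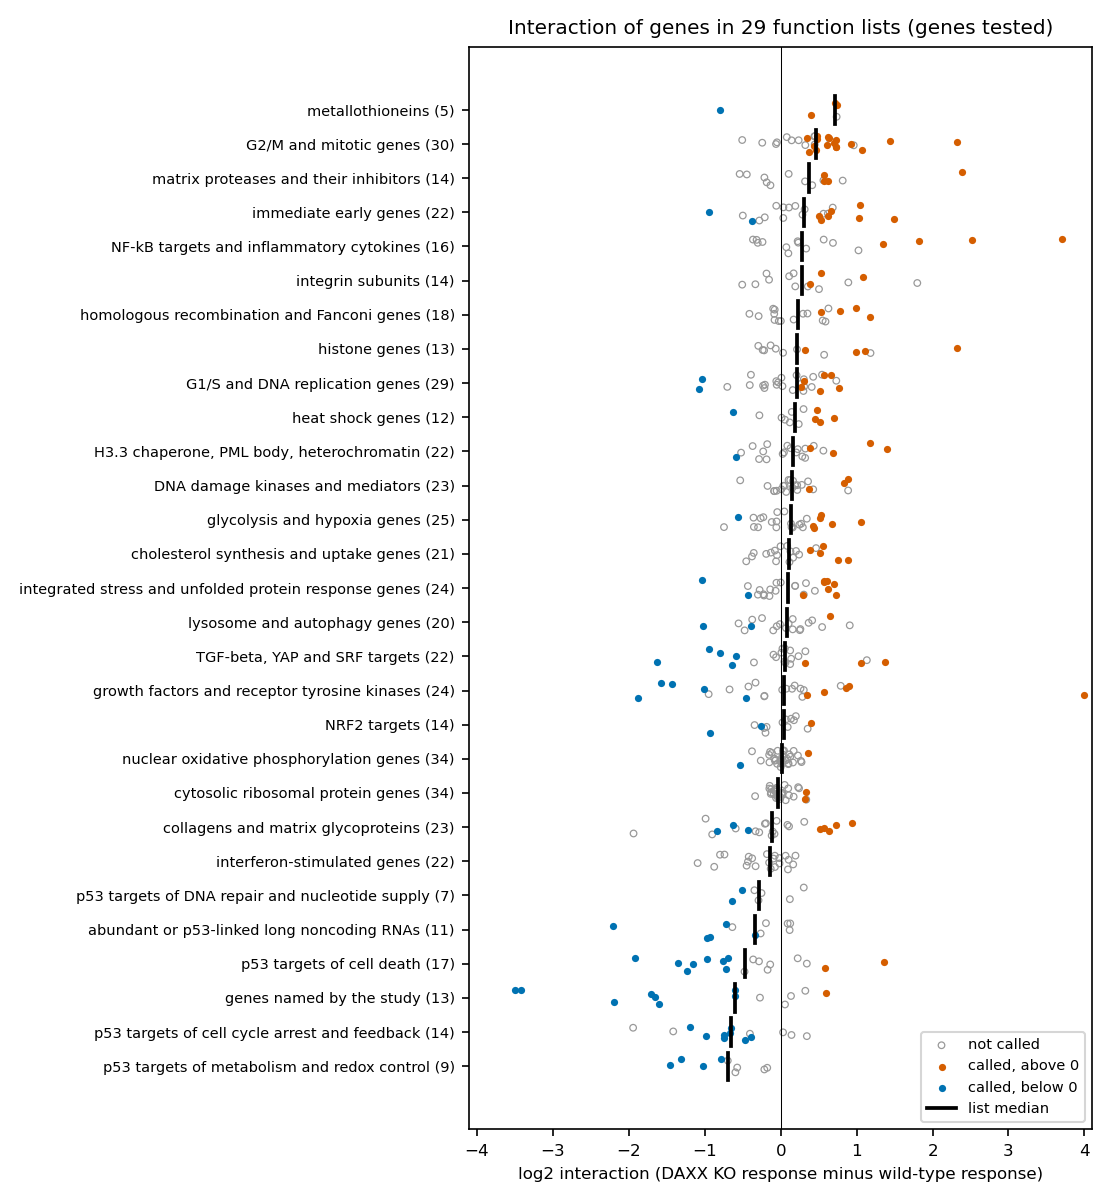
Each point is a tested gene of a function list, placed on the x axis by its log2 interaction (a value beyond 4 is drawn at the edge), with the number of genes after each list's name. Filled points were called at an FDR of 5%, open points were not, and black bars mark list medians, which run from −0.70 for p53 targets of metabolism to 0.71 for metallothioneins.

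Over the 4 p53 lists, 22 of 47 tested genes (46.8%) had a negative interaction, against 5.79% of all genes, and 2 had a positive one. Their median response was 2.10 in WT and 1.35 in DAXX_KO cells, so most were still induced. Of the 24 with a WT response of at least 4-fold, 17 had a negative interaction. Among all genes induced at least 4-fold in WT cells the share was 26.7%.

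Arrest and feedback genes split by where the difference lay. CDKN1A, the cyclin-dependent kinase inhibitor p21 at chr6:36644237-36655114 (GRCh37), rose from 150, 156 and 140 CPM to 5735, 5644 and 5484 CPM in WT cells and from 214, 202 and 211 CPM to 5775, 5272 and 6075 CPM in DAXX_KO cells. The genotypes overlapped with etoposide and not in control, so the interaction of −0.47 ± 0.08 (adjusted p = 0.00086) came with a higher control level in DAXX_KO cells. In such bulk samples fewer cells with an RNA and less of it per cell cannot be told apart. MDM2, which marks p53 for degradation, went the other way. It was 52.7, 46 and 57.3 CPM in WT control and 56, 47 and 50.4 CPM in DAXX_KO control, and reached 867, 866 and 861 CPM against 566, 540 and 505 CPM with etoposide (interaction −0.66 ± 0.11, adjusted p = 0.00046). Here the control libraries overlapped and the etoposide libraries did not. PHLDA3, an inhibitor of AKT, and PLK3, a stress-responsive kinase, also reached lower levels in DAXX_KO cells, with interactions of −0.99 and −1.20. In all, 8 of the 14 arrest and feedback genes tested had a negative interaction and 0 a positive one (median −0.66).

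Among death genes 8 of 17 were negative and 2 positive (median −0.48). BBC3, the BH3-only protein PUMA, rose from 8.92, 10.1 and 7.45 to 153, 159 and 159 CPM in WT cells and from 26.6, 24 and 22.9 to 179, 156 and 175 CPM in DAXX_KO cells. Its etoposide levels overlapped, and its interaction was −1.35 ± 0.14 (adjusted p = 3.3e-06). EDA2R, a death receptor of the TNF receptor family, was lower in DAXX_KO cells in both conditions and its interaction was −0.98. TNFRSF10D, a decoy receptor for TRAIL, moved oppositely. It rose from 18.1, 14.3 and 17.5 to 85.2, 76.3 and 72.9 CPM in WT cells and from 4.25, 4.49 and 2.89 to 46.5, 45.8 and 46.6 CPM in DAXX_KO cells, a larger fold at lower levels (interaction 1.35 ± 0.19, adjusted p = 7.3e-05).

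Of 7 p53 targets of repair 2 had a negative and 0 a positive interaction (median −0.29), and 4 were negative without DAXX_KO etoposide replicate 2. Of 9 targets of metabolism 4 were negative and 0 positive (median −0.70). The negative share was 5.79% over all genes and 26.7% among genes induced at least 4-fold in WT cells. XPC, a DNA damage recognition factor, was induced less (−0.51), and REV3L, the catalytic subunit of DNA polymerase zeta, was induced slightly in WT cells (0.23) and repressed in DAXX_KO cells (−0.40). RRM2B, the p53-inducible subunit of ribonucleotide reductase, had an interaction of −0.25 with an adjusted p of 0.25. FDXR, the mitochondrial ferredoxin reductase, rose from 20.3, 18.9 and 20.7 to 636, 707 and 634 CPM in WT cells and from 14.1, 11.5 and 11.4 to 160, 138 and 195 CPM in DAXX_KO cells (interaction −1.31 ± 0.18, adjusted p = 4.6e-05). It was lower in DAXX_KO cells in both conditions without overlap. The sestrins SESN1 and SESN2, which restrain mTORC1 under stress, had interactions of −1.03 and −0.79, the first with overlapping levels with etoposide and the second with lower ones. CMBL, a hydrolase, had −1.46.

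Genes named by the study were also followed, and because it chose them on these samples their direction is not independent evidence. Of 13 tested, 8 had a negative and 1 a positive interaction. GADD45A, a stress sensor that inhibits the cell cycle, stood at 79.5, 70.3 and 80.2 CPM in WT control and 1012, 982 and 1005 CPM with etoposide, and at 32.5, 30.3 and 25 CPM and 230, 302 and 219 CPM in DAXX_KO cells. Its lower level in DAXX_KO cells was already present in control (−1.39), and the interaction was −0.61 ± 0.15 (adjusted p = 0.011). TP53INP1, a p53-induced nuclear protein, was higher in DAXX_KO control cells and lower with etoposide (interaction −1.66). TNFRSF10A, the TRAIL death receptor DR4, went from 0.793, 0.23 and 0.841 to 10.2, 11.9 and 9.86 CPM in WT cells and from 1.12, 1.32 and 1.93 to 2.07, 1.86 and 2.58 CPM in DAXX_KO cells. Its DAXX_KO response was not called, and its interaction was −3.49 ± 0.50 (adjusted p = 8.4e-05). WDR43, a ribosome biogenesis factor, was repressed in WT (−0.36) and induced in DAXX_KO cells (0.23).

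**Figure D3:**
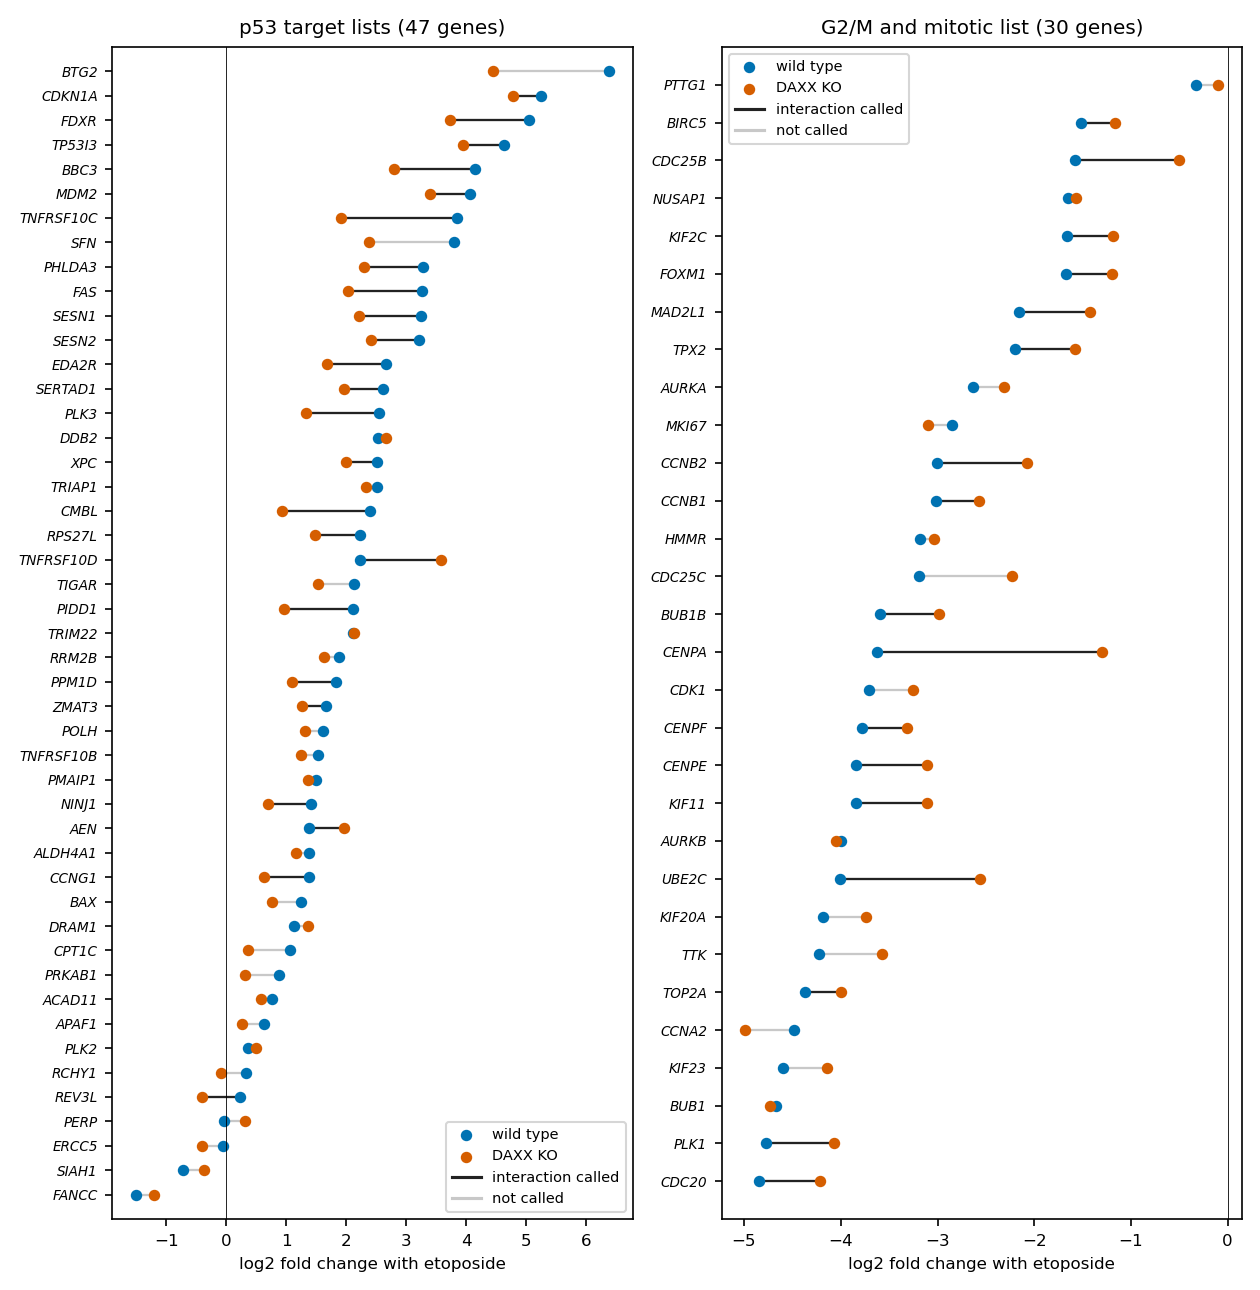
Each row is a tested gene of the 4 p53 target lists (left, 47 genes) or the G2/M and mitotic list (right, 30 genes), with its log2 fold change with etoposide in WT cells (blue) and DAXX_KO cells (orange). A dark line joins the pair where the interaction was called; most p53 targets lie lower in DAXX_KO cells, and all 17 called mitotic genes lie closer to 0 in DAXX_KO cells.

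Mitotic genes were repressed in both genotypes. All 30 genes of the G2/M and mitotic list fell in WT cells and 29 fell in DAXX_KO cells, with medians of −3.61 and −3.01. Of them 17 (56.7%) had a positive interaction, every one of these as weaker repression, and 0 had a negative one. The positive share was 8.38% over all genes and 34% among genes repressed at least 4-fold in WT cells. The median interaction of the list was 0.47. With libraries scaled by totals alone 12 were positive and 1 negative, and 1 was negative without DAXX_KO control replicate 3. The proliferation gene MKI67 (−0.24) and the cyclin gene CCNA2 (−0.51) had interactions below 0 that were not called.

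Repression of mitotic genes is known to act through promoter elements bound by the DREAM complex and NF-Y, and the promoters of 3 of these genes are shown for those elements. They are the 3 genes of the list with the lowest adjusted p among those with a single promoter in the table, from 250 bases before to 50 bases after the start, from RefSeq on GRCh38.p14, and capitals mark the letters TTTGAA with its complement and also TTTAAA (the cell cycle genes homology region, CHR) and CCAAT (the NF-Y element), each searched on both strands. CENPA lies at chr2:26785806-26786105, CCNB2 at chr15:59104896-59105195 and PLK1 at chr16:23678639-23678938, all on the plus strand.
CENPA: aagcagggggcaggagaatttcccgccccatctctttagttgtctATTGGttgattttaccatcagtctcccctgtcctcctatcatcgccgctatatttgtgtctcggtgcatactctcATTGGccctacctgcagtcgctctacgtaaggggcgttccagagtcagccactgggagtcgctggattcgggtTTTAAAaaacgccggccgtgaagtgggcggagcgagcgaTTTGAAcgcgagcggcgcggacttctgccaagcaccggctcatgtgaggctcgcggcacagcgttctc
CCNB2: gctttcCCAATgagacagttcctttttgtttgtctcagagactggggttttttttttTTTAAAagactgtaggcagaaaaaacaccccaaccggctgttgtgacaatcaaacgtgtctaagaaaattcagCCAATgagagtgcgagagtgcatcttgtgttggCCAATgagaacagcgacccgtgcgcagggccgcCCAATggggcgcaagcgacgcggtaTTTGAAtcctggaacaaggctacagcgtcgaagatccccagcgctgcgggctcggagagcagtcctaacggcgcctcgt
PLK1: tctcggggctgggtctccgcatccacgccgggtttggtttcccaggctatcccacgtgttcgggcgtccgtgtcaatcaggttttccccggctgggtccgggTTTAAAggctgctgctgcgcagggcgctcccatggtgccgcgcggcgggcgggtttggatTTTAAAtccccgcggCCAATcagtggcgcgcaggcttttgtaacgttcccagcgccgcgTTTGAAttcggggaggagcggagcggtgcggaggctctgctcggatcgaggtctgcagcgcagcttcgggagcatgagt

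Of the 30 list genes, 24 had a promoter in the table, with 33 promoters in all. CHR letters stood in 72.7% of these and CCAAT letters in 78.8%, against 24% and 34.6% of all 35116 promoters, and 60.6% held both, against 9.27%. Promoters of the list genes with weaker repression and of those not called held both sets of letters in 56.2% and 64.7%. Over the whole weaker repression class the share with both was 9.99%, against 6.75% for promoters of the genes tested and 23.7% for those of genes at least 4-fold lower with etoposide in WT cells. A match of letters is a description, not a binding site.

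CENPA, the centromeric histone H3 variant, showed the largest difference of the list. It fell from 33.1, 29.1 and 34.8 CPM to 2.13, 3.57 and 2.03 CPM in WT cells and from 31.5, 35.1 and 26.4 CPM to 12.2, 12.8 and 12.5 CPM in DAXX_KO cells. Control libraries overlapped and those with etoposide did not (interaction 2.33 ± 0.24, adjusted p = 2.7e-06). UBE2C, the ubiquitin-conjugating enzyme of the anaphase-promoting complex, fell to 14.9, 13.7 and 16.6 CPM in WT cells and to 31.4, 40.3 and 28.6 CPM in DAXX_KO cells (interaction 1.44). CCNB2, a mitotic cyclin, ended at 18.9, 18 and 20.3 CPM against 30.7, 30.1 and 32.1 CPM (interaction 0.93), and CDC25B, the phosphatase that activates CDK1, at 25.1, 28.6 and 25.3 against 59.3, 59.1 and 64.5 CPM (interaction 1.07). In each of these genes the DAXX_KO level with etoposide was higher, without overlap.

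Some proliferation genes ran against this direction. KIF18B, a mitotic kinesin outside the list, fell from 57.1, 48.1 and 51.2 to 3.01, 2.38 and 3.11 CPM in WT cells and from 38.6, 33.4 and 37.3 to 0.609, 0.725 and 0.336 CPM in DAXX_KO cells (interaction −1.79 ± 0.34, adjusted p = 0.0013). Of the 29 G1/S and replication genes, 6 were positive and 2 negative (median 0.21), and with scaling by totals alone 3 were positive and 4 negative. RRM1, the large subunit of ribonucleotide reductase, was repressed less (0.76). E2F1, the G1/S transcription factor, fell in WT cells (−0.42) and rose in DAXX_KO cells (0.24), whereas its relative E2F2 fell more in DAXX_KO cells (−1.08). PCNA, the replication clamp, went from 118, 96.9 and 94.3 to 120, 118 and 126 CPM in WT cells, a change that was not called, and from 78.2, 87.9 and 85.2 to 46.2, 56.7 and 40.4 CPM in DAXX_KO cells (interaction −1.04 ± 0.15, adjusted p = 7.7e-05).

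Among 18 homologous recombination and Fanconi genes 4 had a positive and 0 a negative interaction (median 0.23). Among 23 damage kinases and mediators the counts were 3 and 0 (median 0.15). The positive shares were 22.2% and 13%, against 8.38% over all genes and 34% among genes repressed at least 4-fold in WT cells. In WT cells 16 of the 18 and 16 of the 23 genes fell. The 4 became 2 without DAXX_KO control replicate 2, DAXX_KO etoposide replicate 1 or WT control replicate 3, with medians of 0.08 to 0.34 over all libraries left out. The 3 and 0 became 5 and 1 without DAXX_KO etoposide replicate 3 and 2 and 0 without WT etoposide replicate 2. Without WT control replicate 2, 1 was negative. FANCD2, the monoubiquitinated Fanconi protein, fell from 103, 108 and 100 to 16.9, 19.6 and 17.6 CPM in WT cells and from 56.1, 57.3 and 58.4 to 17.5, 18.5 and 15.3 CPM in DAXX_KO cells. The etoposide levels overlapped, so the weaker fold (0.78 ± 0.13, adjusted p = 0.00037) came with a lower control level. TOP2A, the topoisomerase that etoposide traps, fell from 2066, 2201 and 2115 to 100, 109 and 99.1 CPM and from 1705, 1712 and 1647 to 105, 102 and 110 CPM, with the same pattern (0.38). TIMELESS, a replication fork protein, was higher in DAXX_KO cells in both conditions and its interaction was 0.88.

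**Figure D4:**
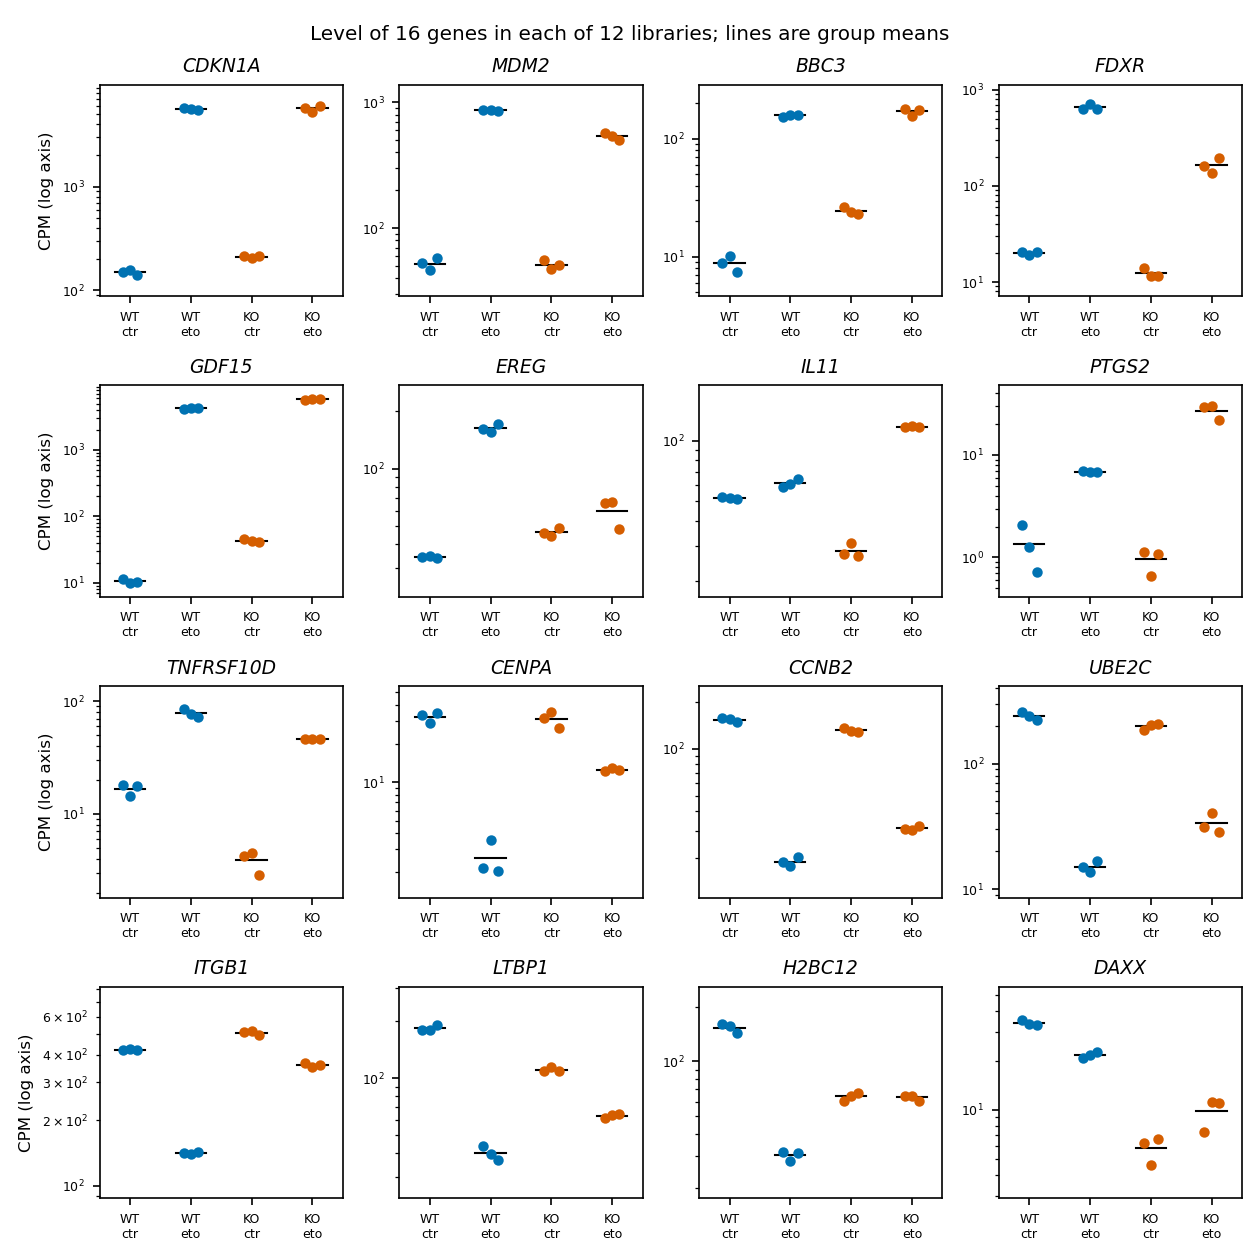
Level in CPM on a log axis of 16 genes in each of the 12 libraries, as 3 points a group in WT control, WT etoposide, DAXX_KO control and DAXX_KO etoposide, with group means as lines. The genotypes separate with etoposide alone for MDM2, in control alone for CDKN1A and BBC3 and in both for FDXR, and CENPA and CCNB2 stay higher in DAXX_KO cells with etoposide.

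GDF15, a stress-induced TGF-beta family cytokine at chr19:18485541-18499986, rose from 11.5, 9.79 and 10.3 to 4172, 4298 and 4341 CPM in WT cells and from 46, 41.8 and 41.5 to 5760, 5905 and 5853 CPM in DAXX_KO cells. Its fold was smaller in DAXX_KO cells (interaction −1.57 ± 0.09, adjusted p = 2.5e-09) although both of its levels were higher there, without overlap. EREG, an EGF receptor ligand, rose from 34.2, 34.7 and 33.8 to 162, 155 and 172 CPM in WT cells but only from 45.9, 44.2 and 48.7 to 65.8, 66.4 and 48 CPM in DAXX_KO cells (interaction −1.88 ± 0.14, adjusted p = 7.4e-08). Over 24 growth factors and receptor tyrosine kinases 5 were positive and 5 negative (median 0.05), and the receptors EPHB2 and MET were repressed less (0.90 and 0.58).

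Of 16 NF-kB targets and cytokines tested, 4 had a positive and 0 a negative interaction, with a median of 0.28. The positive share was 25%, against 8.38% over all genes. In the model of all 24 libraries 1 was positive and 0 negative, and without DAXX_KO control replicate 3, WT control replicate 1 or WT etoposide replicate 1 the counts were 4 and 1. IL11, a cytokine of the IL-6 family, went from 52.5, 52 and 51.5 to 58.7, 60.7 and 64.4 CPM in WT cells and from 27.2, 30.7 and 26.6 to 117, 119 and 117 CPM in DAXX_KO cells. It was lower in DAXX_KO control cells and higher with etoposide, without overlap in either (interaction 1.83 ± 0.11, adjusted p = 2.5e-09). PTGS2, the inducible cyclooxygenase COX-2, reached 6.9, 6.78 and 6.75 CPM in WT and 29.2, 29.9 and 22.1 CPM in DAXX_KO cells from control levels of 0.66 to 2.08 CPM that overlapped (interaction 2.52 ± 0.44, adjusted p = 0.00063). CXCL8, the neutrophil chemokine interleukin-8, had at most 3 counts in each DAXX_KO control library (0.375, 0.264 and 0.241 CPM) and reached 7.43, 8.49 and 7.5 CPM with etoposide, against 1.09, 1.38 and 0.24 CPM and 1.76, 1.9 and 1.76 CPM in WT cells. With all 24 libraries in the model the adjusted p was 0.0569 for PTGS2, 0.0976 for CXCL8 and 0.336 for CSF3, the granulocyte growth factor. IGFBP3, which binds insulin-like growth factors, rose from 47.6, 42.1 and 39.6 to 91.9, 94 and 91.4 CPM in WT cells and from 14.4, 15.7 and 13.4 to 121, 157 and 88.5 CPM in DAXX_KO cells (interaction 1.98 ± 0.22, adjusted p = 5.6e-06).

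Of 22 immediate early genes 15 fell in WT and 11 in DAXX_KO cells, with 7 positive and 2 negative interactions (median 0.30). These shares were 31.8% and 9.09%, against 8.38% and 5.79% over all genes. The 2 became 1 without DAXX_KO control replicate 2, DAXX_KO etoposide replicate 1 or 3, WT control replicate 1 or 2 or WT etoposide replicate 1 or 3. JUN, a subunit of AP-1, fell from 395, 373 and 374 to 177, 170 and 175 CPM in WT cells and from 237, 229 and 235 to 164, 169 and 157 CPM in DAXX_KO cells (interaction 0.62). DAXX_KO against WT cells differed by −0.71 in control and by −0.09 with etoposide, the latter not called. DUSP6, a phosphatase that limits ERK, fell in WT cells (−0.81) and did not pass in DAXX_KO cells (0.23), and ATF3, a stress-induced repressor, was induced less (−0.95).

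ITGB1, the common integrin beta subunit at chr10:33176201-33294720, fell from 423, 425 and 423 to 142, 140 and 144 CPM in WT cells and from 511, 514 and 492 to 368, 354 and 359 CPM in DAXX_KO cells (interaction 1.09 ± 0.08, adjusted p = 2.7e-08). Of 14 integrin subunits, 9 fell in WT cells, and 3 were positive and 0 negative (median 0.27). The positive share was 21.4%, against 8.38% over all genes. LTBP1, which tethers latent TGF-beta in the matrix, fell from 180, 178 and 189 to 43.7, 39.9 and 37.1 CPM and from 109, 115 and 109 to 61.6, 63.7 and 64.9 CPM (interaction 1.37 ± 0.10, adjusted p = 5.4e-08), lower in DAXX_KO cells in control and higher with etoposide. LAMB1, a laminin chain, and COL6A3, a collagen VI chain, were repressed less (0.94 and 0.73), whereas COL1A2, a collagen I chain, was repressed more (−0.83), from a higher level in DAXX_KO control cells to an overlapping one with etoposide. The 23 collagens and glycoproteins gave 5 positive and 3 negative interactions and a median of −0.12. These shares were 21.7% and 13%, against 8.38% and 5.79% over all genes. Of 14 matrix proteases and inhibitors 4 were positive and 0 negative (3 and 2 with scaling by totals alone, and 1 negative without DAXX_KO etoposide replicate 2 or WT etoposide replicate 3): PLAUR, the urokinase receptor, and TIMP2 were repressed less (0.62 and 0.57) and TIMP1 was induced more (0.57). The list held 28.6% positive genes, against 8.38% over all genes. TIMP3, an inhibitor outside this list that the study names, ran the other way. Its interaction was −1.67 to −1.51 with single libraries left out.

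Targets of TGF-beta, YAP and SRF split into 3 positive and 5 negative (median 0.05; 2 and 6 with scaling by totals alone). Positive genes numbered 1 without WT etoposide replicate 1 or 2. Negative genes numbered 3 without DAXX_KO control replicate 2, DAXX_KO etoposide replicate 1, WT control replicate 2 or 3 or any WT etoposide replicate. The YAP targets CCN1, a matricellular protein, and AMOTL2, an angiomotin, fell more in DAXX_KO cells. CCN1 went from 43.2, 42.8 and 51.5 to 18.7, 20.9 and 18.4 CPM in WT cells and from 35.9, 40 and 39.7 to 4.99, 7.25 and 3.36 CPM in DAXX_KO cells (interaction −1.63 ± 0.22, adjusted p = 5.4e-05). ACTA2, smooth muscle actin, was induced in both and less in DAXX_KO cells (−0.59), from higher levels.

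Chromatin genes included the targeted gene. DAXX mRNA fell with etoposide in WT cells (−0.65) and rose in DAXX_KO cells (0.76), an interaction of 1.41 ± 0.22 (adjusted p = 0.00019), and what transcript the remaining counts stand for was not tested. Of the 22 genes of H3.3 deposition, PML bodies and heterochromatin, 4 were positive and 1 negative (median 0.17). With scaling by totals alone 3 were positive and 3 negative. The shares were 18.2% and 4.55%, against 8.38% and 5.79% over all genes, and 15 of the 22 fell in WT cells. CBX3, heterochromatin protein 1 gamma, fell from 555, 571 and 581 to 175, 186 and 180 CPM in WT cells and from 561, 568 and 621 to 355, 420 and 477 CPM in DAXX_KO cells (1.17 ± 0.11, adjusted p = 1.8e-06). PML, the organiser of the nuclear bodies where DAXX resides, was induced in WT cells from 61, 60.4 and 66.2 to 94.9, 90.2 and 96.8 CPM and stood at 56.7, 53.2 and 61.9 CPM and 58.2, 56.1 and 57.8 CPM in DAXX_KO cells (−0.59 ± 0.11, adjusted p = 0.00099). H2BC12, a histone H2B gene at chr6:27114140-27114634, fell from 161, 156 and 142 to 31.6, 28.2 and 31.3 CPM in WT cells and stood at 60.7, 64.7 and 66.7 CPM and 64.3, 64.7 and 60.8 CPM in DAXX_KO cells (2.32 ± 0.11, adjusted p = 2.6e-10). Histone genes share near-identical sequence and most of their RNA lacks a poly(A) tail, so their counts are uncertain. Of 13 histone genes 4 were positive and 0 negative (median 0.21).

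The list of long noncoding RNAs was chosen for abundant or p53-linked ones, so it does not stand for long noncoding RNAs in general. Of its 11 tested members 10 rose with etoposide in WT cells, with a median response of 1.75. Of the 11, 5 (45.5%, against 5.79% of all genes) had a negative and 0 a positive interaction. Among genes induced at least 4-fold in WT cells the negative share was 26.7%. The median interaction was −0.34, and 6 were not called. PURPL, a p53-induced RNA, rose from 1.19, 1.5 and 1.44 to 13.6, 12.3 and 15.4 CPM in WT cells and from 8.87, 8.05 and 6.14 to 15.7, 17.6 and 15.9 CPM in DAXX_KO cells (−2.22). NEAT1, the scaffold of paraspeckles, also started higher in DAXX_KO cells and had an interaction of −0.72, with an adjusted p of 0.053 by DESeq2. SNHG12, a snoRNA host gene, was lower in DAXX_KO cells in both conditions (−0.97).

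Stress and metabolic lists held called genes in both directions. Positive shares were 29.2% for stress response, 33.3% for heat shock and 24% for glycolysis and hypoxia genes, against 8.38% over all genes. Negative shares were 8.33%, 8.33% and 4%, against 5.79%. Of 24 integrated stress and unfolded protein response genes, 7 were positive and 2 negative (median 0.09; 6 and 5 with scaling by totals alone): DDIT4, an mTORC1 inhibitor, and DDIT3, the factor CHOP, were induced less (−1.04 and −0.44), and the serine pathway enzyme SHMT2 more (0.57). Of 12 heat shock genes 4 were positive and 1 negative (median 0.19; 2 negative without DAXX_KO control or etoposide replicate 1): HSP90AA1, the inducible HSP90, fell from 6462, 6475 and 7457 to 2949, 3215 and 3059 CPM in WT cells and from 3351, 3165 and 2906 to 2169, 2321 and 2437 CPM in DAXX_KO cells (0.70). HK2, the hexokinase at the entry of glycolysis, fell in WT cells (−0.51) and rose in DAXX_KO cells (0.54), and the 25 glycolysis and hypoxia genes gave 6 positive and 1 negative (median 0.14; 4 and 5 with scaling by totals alone; 3 negative without DAXX_KO etoposide replicate 2 and 2 without WT control replicate 3).

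Among 21 cholesterol genes 5 were positive and 0 negative (median 0.12). The positive share was 23.8%, against 8.38% over all genes. INSIG1, which retains the sterol sensor in the endoplasmic reticulum, fell from 149, 141 and 135 to 45.4, 45 and 46.3 CPM in WT cells and from 206, 196 and 209 to 99.4, 94.4 and 88.1 CPM in DAXX_KO cells (0.52 ± 0.10, adjusted p = 0.0013), higher in DAXX_KO cells in both conditions without overlap. Of 14 NRF2 targets 1 was positive and 2 negative (median 0.05; 0 and 4 with scaling by totals alone; 0 positive without DAXX_KO control replicate 2), with heme oxygenase HMOX1 rising from 67.6, 70.1 and 67.5 to 192, 184 and 220 CPM in WT cells and from 39, 43.7 and 43.6 to 60.3, 65.8 and 66.6 CPM in DAXX_KO cells (−0.93 ± 0.12, adjusted p = 2.2e-05). Of 20 lysosome and autophagy genes 1 was positive and 2 negative (median 0.09; 2 positive without DAXX_KO control replicate 2 and 3 without DAXX_KO etoposide replicate 3), the autophagy receptor SQSTM1 being induced less (−0.39). The 5 metallothioneins, which bind zinc and copper, split: MT2A fell from 20619, 19327 and 18750 to 4724, 4927 and 4278 CPM in WT cells and from 8208, 8512 and 8464 to 3128, 3400 and 3417 CPM in DAXX_KO cells (0.73), while MT1E fell more in DAXX_KO cells (−0.80). Metallothionein genes are close in sequence and reads may be split among them.

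The class lists were led by genes outside these groups. AQP3, a water and glycerol channel, rose from 0.496, 1.27 and 0.601 to 19.1, 24.6 and 23.2 CPM in WT cells and from 2.62, 2.64 and 2.89 to 5.12, 7.66 and 3.25 CPM in DAXX_KO cells (−3.84 ± 0.46, adjusted p = 1.6e-05), the strongest weaker induction under the naming rule. DEPP1, a FOXO-regulated autophagy gene, reached 11.9, 15 and 11.3 CPM in WT cells against 0.731, 2.49 and 1.68 CPM in DAXX_KO cells. ANK1, the membrane adaptor ankyrin-1, was induced in WT cells (from 1.59, 1.96 and 2.64 to 7.15, 9.76 and 7.83 CPM) and repressed in DAXX_KO cells (from 32, 33.5 and 28.8 to 12.7, 15.3 and 18.6 CPM), and KCNE4, a potassium channel subunit, did the same (1.24 and −1.46). LPAR1, a lysophosphatidic acid receptor, and RUNX1T1, a transcriptional corepressor, fell in WT cells (from 28.3 to 34.4 down to 3.81 to 5 CPM, and from 47.6 to 54.9 down to 13.1 to 19.4 CPM) but had at most 3 counts in every DAXX_KO control library. Of the 2160 called genes 66 had such a group, and no fold is drawn from them.

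The most alike comparison in the series is the same contrast in ATRX_KO cells, measured in 12 other libraries with their own WT controls. In a model of all 24 libraries the DAXX interaction differed from the ATRX interaction for 500 of 16674 genes (3%), higher for 320 (1.92%) and lower for 180 (1.08%). Of the 630 genes with weaker induction in DAXX_KO cells 331 were also called lower for ATRX, against 8% of all genes. Of the 865 with weaker repression 474 were called higher, against 10.5%. Both classes were sorted by a WT response to etoposide, and the ATRX interaction also subtracts one. The excess over all genes is therefore in part set by the sorting. The ATRX share among all genes induced or repressed in WT cells was not taken. For the DAXX interaction 26.7% of genes induced at least 4-fold were negative and 34% of those repressed at least 4-fold were positive. On the mitotic list 8 of 30 genes were higher for DAXX than for ATRX and 1 was lower. CENPA, CDC25B and CCNB2 had ATRX interactions of 0.72, 0.02 and −0.23. The p53 targets CDKN1A and TNFRSF10D differed too, CDKN1A with an ATRX interaction of −1.51. BBC3 and FDXR had ATRX interactions of −1.38 and −1.21, and their differences of 0.03 and −0.09, like that of 0.34 for MDM2, were not called. PTGS2 had an ATRX interaction of −1.51 against 2.52 for DAXX.

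**Figure D5:**
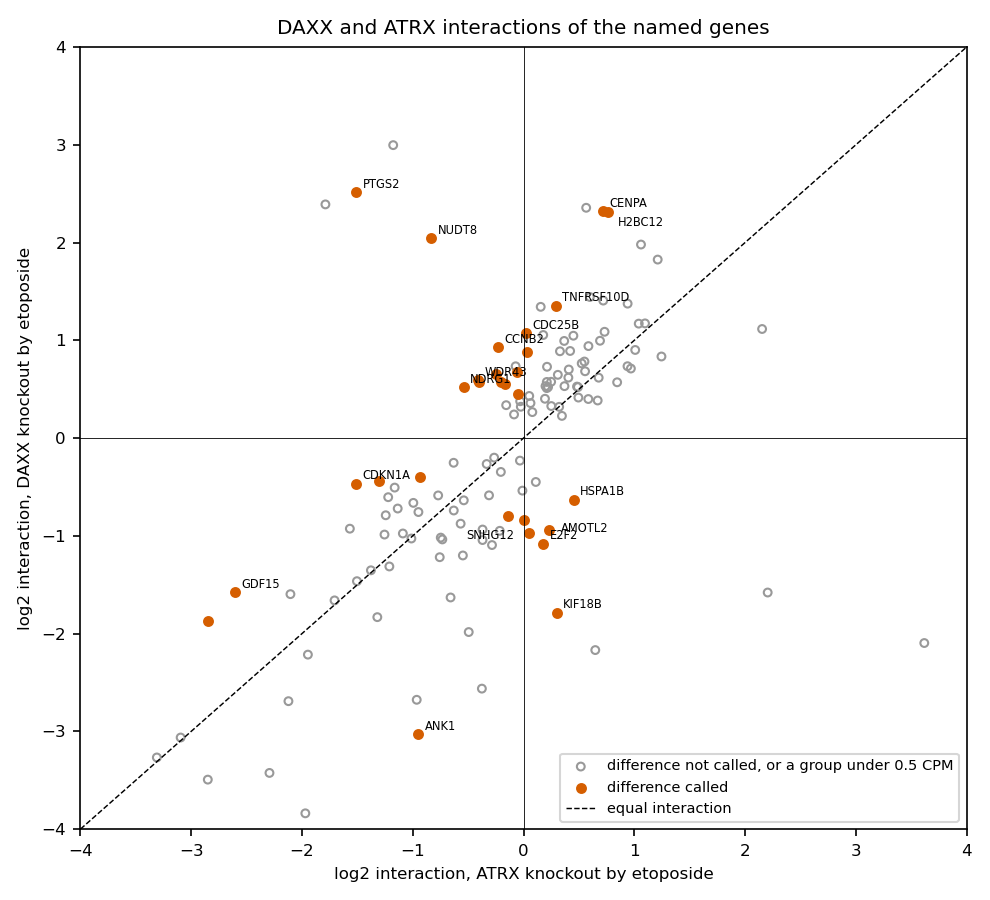
Each point is 1 of 135 named genes, with its log2 ATRX interaction on the x axis and its log2 DAXX interaction on the y axis. The 29 filled points differ between the 2 interactions at an FDR of 5% with every group mean at 0.5 CPM or more, names are given where the difference is at least 1, and the dashed line marks equal interactions; PTGS2 lies upper left and KIF18B lower right.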

How the data were processed

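RNA of U87-T cells was measured with QuantSeq 3′ mRNA libraries. The authors aligned reads with STAR to hg19 (GRCh37), estimated counts per gene with RSEM (1.2.3 per the submitters' processing notes, which also name DESeq2) and deposited counts as whole numbers. Gene symbols came from GENCODE 44 on GRCh37, which matched 55501 of 57736 identifiers and 98.8% of counts.

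Groups follow the titles. Genes passing filterByExpr (minimum count 10, minimum total 15) were fitted with edgeR 4.0.16 (R 4.3.3) by the quasi-likelihood test with TMM scaling over 12 libraries and 4 groups, with Benjamini-Hochberg adjustment at 5%. Errors after ± are standard errors. The 24-library model compared the DAXX and ATRX interactions. CPM values use TMM-scaled totals, and 3 counts equal 0.297 to 0.405 CPM. A group with at most 3 counts in each library was given as levels only. Tables and figures were made with Python 3.11.15, pandas 2.3.3 and matplotlib 3.10.9.

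Members and lists were chosen with earlier results of these data known. Genes were named by rule: DAXX and ATRX, up to 4 members per list with the smallest adjusted p, and the 5 protein-coding genes per class with the largest interaction, at least 5 CPM in a group and 1 sign with each library left out, plus CDKN1A, MDM2 and GADD45A. Some genes that the rule names are not reported here. MKI67, CCNA2 and the printed promoters' gene PLK1 were named after their values were seen. Genes of the mitochondrial genome were not analysed here. On simulated counts for this interaction over 14989 genes, 61 of 100 genes changed by 1 (log2) and 82 of 100 changed by 1.5 were recovered, with 11 false calls. Only these genes were changed, all above a minimum level in WT control, and counts were drawn with the spread of the fit. A far larger share of genes was called in the data, so these rates need not hold there or at low counts. Alternatives were DESeq2 1.42.0, RLE factors, library totals, other filters, a replicate block, all 24 libraries, an unadjusted threshold and leaving out each library.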

Additional observations from a re-analysis of the deposited data

Results flagged for a closer look

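The interaction differed between DAXX_KO and ATRX_KO cells for 35 of 151 named genes, by a test of the difference itself in the 24-library edgeR model. Of the 35 genes 29 are given here. Values are the DAXX minus the ATRX interaction (log2), each knockout against its own WT libraries. Of the 29 genes 21 were above 0 and 8 below. Over all 16674 genes 3% differed, 1.92% higher and 1.08% lower for DAXX. Most named genes were chosen by their DAXX interaction, so these counts are in part set by that choice. Groups held 3 samples, so single libraries were not tested as outliers.

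Among p53 targets and stress factors the differences were 1.06 for CDKN1A, 1.07 for TNFRSF10D, 1.04 for GDF15, 0.88 for DDIT3 and 0.55 for SQSTM1. Among cell cycle and replication genes they were 1.62 for CENPA, 1.17 for CCNB2, 1.06 for CDC25B, 0.92 for E2F1, 0.99 for MCM5 and 0.86 for TIMELESS, while KIF18B and E2F2 lay at −2.08 and −1.25. For secreted and inflammatory genes the values were 4.04 for PTGS2 and 0.98 for EREG. The collagen gene COL1A2 lay at −0.83 and the YAP target AMOTL2 at −1.16. On the full lists 0 collagens and matrix glycoproteins were higher for DAXX and 2 lower. Of the TGF-beta, YAP and SRF targets 1 was higher and 1 lower, and of the matrix proteases and inhibitors 4 were higher and 0 lower.

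Metabolic genes gave 0.74 for NSDHL, 0.79 for SHMT2, 0.74 for PFKP and 1.07 for NDRG1. The heat shock genes split, with 0.50 for HSP90AB1 and −1.07 for HSPA1B, whose reads may be shared with a near-identical copy. H2BC12 gave 1.57, the snoRNA host SNHG12 −1.01 and the metallothionein MT1E −0.65. WDR43 gave 1.01 and ANK1 −2.07. NUDT8 gave 2.89, and its DAXX interaction was lost without WT control replicate 1 (adjusted p = 0.103).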

How the results depend on the processing

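With libraries scaled by totals alone, 793 genes had a positive and 1359 a negative interaction, with 100 reversed inductions, 68 stronger inductions, 107 gained inductions, 567 weaker repressions, 50 reversed repressions, 105 stronger repressions and 255 gained repressions. Under that scaling 96 list members were negative, and the DAXX interaction was above the ATRX interaction for 207 genes and below it for 389. DESeq2 gave 29 reversed inductions. At an unadjusted p under 0.05 there were 1202 weaker, 281 stronger and 392 gained inductions, and 1520 weaker, 127 stronger and 290 gained repressions. The cause of these shifts was not tested, except that the unadjusted threshold admits more genes.

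With each library left out in turn, positive interactions numbered 952 to 1310 and negative ones 672 to 974. Stronger inductions numbered 78 to 150, with 78 without WT control replicate 2 or WT etoposide replicate 3, 82 and 80 without WT etoposide replicates 1 and 2, and 81 without DAXX_KO control replicate 2. Reversed repressions numbered 54 to 96, with 54 without WT or DAXX_KO control replicate 2. Stronger repressions numbered 41 to 112, with 112 without DAXX_KO etoposide replicate 2. Genes with the DAXX below the ATRX interaction numbered 120 to 286, with 279 without DAXX_KO etoposide replicate 2 and 286 without ATRX_KO control replicate 3.

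The labels do not say whether same-numbered libraries were paired. No replicate effect shared between groups was seen: 18 correlations of their deviations ran from −0.086 to 0.049. With the replicate block 1882 genes were called (1111 positive and 771 negative), 1864 of them shared with the fit without it. Of 135 named genes called, 106 kept the call in every alternative and 25 lost it with a library left out; 0 results changed sign in a called direction.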
